A study of Mus musculus with 4 samples.

Results

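The genes described here encode the postsynaptic scaffold and the adhesion proteins that join the sides of a synapse. They were named as a list of 39 genes, and each was read on the brightest of the array rows (transcript clusters) annotated to it alone, judged by the mean of all 4 arrays. Such a row was found for 38 of the 39 genes, out of 19938 genes with a row of this kind. Nptxr, which encodes the neuronal pentraxin receptor, had no row of its own and has no value here. No filter on low values was applied, so all 38 genes entered the test.

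RNA from the hippocampus of male C57BL/6JJmsSlc mice, aged 11 to 12 weeks per the labels, was hybridized to whole-transcript arrays. The R-SDS group (2 arrays) had been through repeated social defeat stress, in which each mouse met an aggressive ICR male for 10 min a day over 10 days, with the partner changed daily, and otherwise lived beside an ICR male across a divider, and the study describes the arrayed R-SDS mice as susceptible by their avoidance in a social interaction test. The Control group (2 arrays) had no defeat and lived as pairs of C57BL/6JJmsSlc males on either side of a divider, with a new partner each day. No transgene or drug is named for either group. Values are log2 expression after robust multi-array averaging (RMA), so a difference of 1 is a doubling of signal. Per the methods, 2 mice were arrayed for R-SDS, but nothing says separately how many mice gave the control arrays, and p-values measure only the spread between these arrays. In whole-tissue RNA, fewer cells of a type and less RNA per cell cannot be told apart.

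At an excitatory synapse, glutamate receptors are held in the postsynaptic density, a protein layer under the membrane of the dendritic spine. Guanylate kinase scaffolds of the Dlg family bind receptors, Dlgap proteins link them to the Shank scaffolds, and Homer proteins tie Shank to metabotropic receptors and to actin. The calcium/calmodulin-dependent kinase CaMKII, which is very abundant in hippocampal spines, responds to calcium entry and is required for long-term potentiation. Across the cleft, presynaptic neurexins bind neuroligins and LRRTM proteins directly, and cerebellins from outside the cell. The comparison asked whether transcripts of this machinery were changed by the stress.

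None of the 38 genes passed the test between R-SDS and Control. By limma with Benjamini-Hochberg adjustment over all 21789 transcripts with a single symbol, 0 of 38 genes had an adjusted p under 0.05, where the background was 0.0% of transcripts. At an unadjusted p under 0.05 the count was again 0 of 38, beside 1.01% of all transcripts (221), and the methods' t-test also gave 0 of 38 at either threshold. The log2 differences lay between -0.23 (Cbln2) and 0.17 (Synpo), with 19 genes having a higher and 19 a lower mean in R-SDS mice. Their median was -0.013, beside 0.0072 over all tested transcripts. Single arrays moved this split, which was 9 higher and 29 lower without Control 2 (median -0.059), 12 and 26 without R-SDS 1 (-0.032), 20 and 18 without Control 1 (0.018) and 20 and 18 without R-SDS 2 (0.0085). For 0 of the 38 genes was the difference larger than its standard error, and 30 differed by less than 0.1.

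These small differences come with wide intervals, since 2 arrays a group limit the precision. The 95% confidence interval of limma lay inside a log2 difference of 0.5 either way, the threshold of the study, for 27 of the 38 genes. For the other 11 genes it reached past 0.5, and for all 38 it lay inside 1. The narrowest intervals belonged to genes such as Kalrn (-0.30 to 0.32), and the widest was that of Cbln2 (-0.82 to 0.35, that is 0.568-fold to 1.28-fold). A gene that failed the test is therefore not shown to be the same in stressed and control mice.

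**Figure D1:**
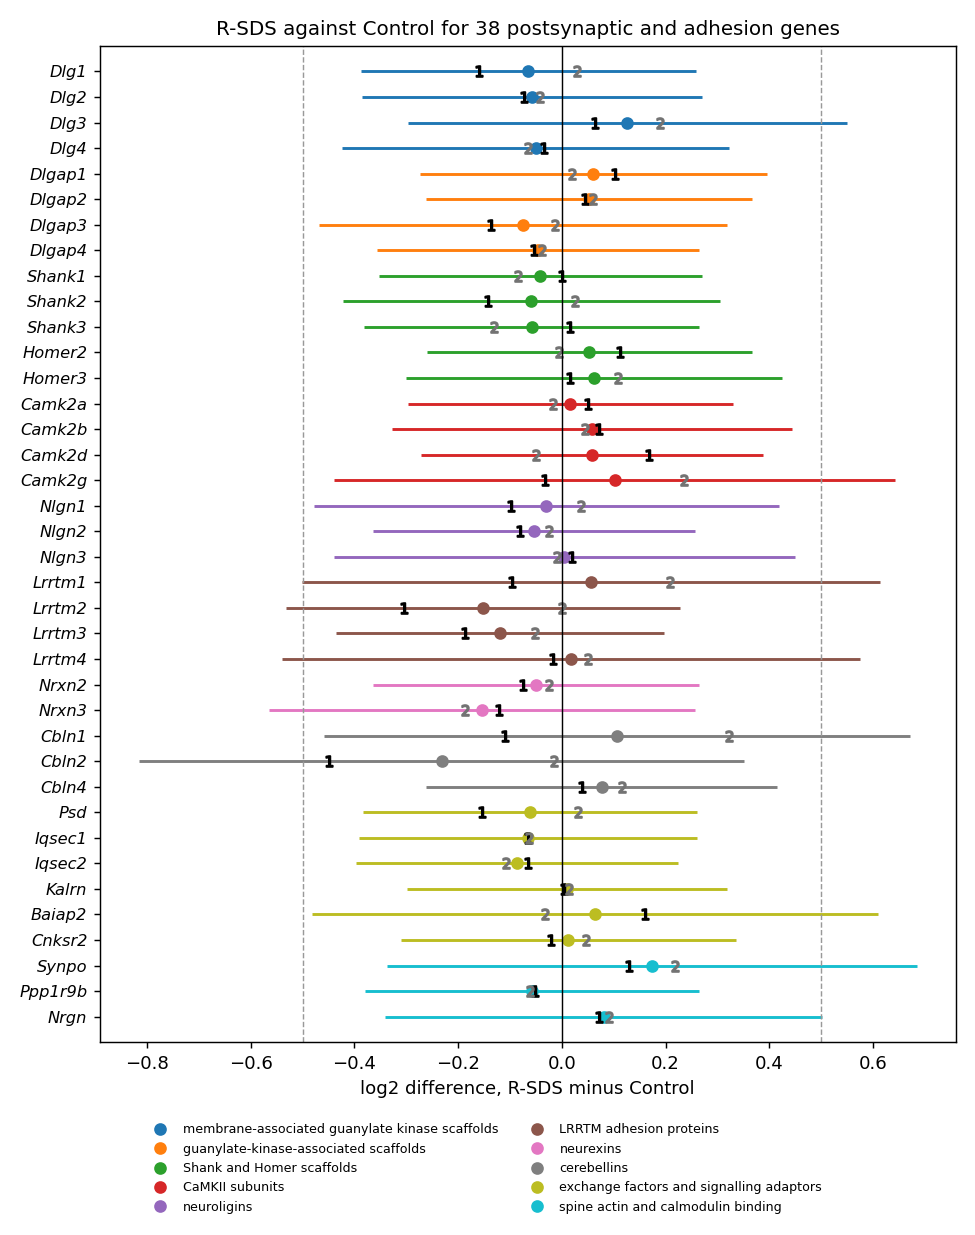
Log2 difference between R-SDS and Control (horizontal axis) for 38 genes (rows), with limma's 95% confidence interval as a line, the group difference as a coloured point, and the differences within replicate number 1 and within number 2 as the digits 1 and 2. All lines cross 0, and the dashed lines mark 0.5 either way, which 11 of the intervals pass.

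The Dlg genes encode the scaffolds SAP97 (Dlg1), PSD-93 (Dlg2), SAP102 (Dlg3) and PSD-95 (Dlg4). Dlg3 measured 8.90 in Control 1 and 8.55 in Control 2, while R-SDS 1 read 8.96 and R-SDS 2 read 8.74. The groups overlapped, and the array of number 2 was the lower in each group. The log2 difference of Dlg3 was 0.13 (SE 0.17, limma adjusted p = 1), and it was -0.048 without Control 2. The other Dlg genes had mean differences from -0.065 (Dlg1) to -0.051 (Dlg4), with PSD-95 at 10.9 ± 0.14 in Control and 10.8 ± 0.16 in R-SDS mice (SD, n = 2 each).

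Among the Dlgap genes, whose proteins bridge PSD-95 and Shank, the difference farthest from 0 was that of Dlgap3. Dlgap3 measured 9.21 and 8.91 in Control 1 and 2, and 9.07 and 8.89 in R-SDS 1 and 2. Its difference was -0.075 (SE 0.16), and the array of number 2 was the lower in each group. Dlgap4 was lower in both R-SDS arrays (8.95 and 8.92) than in both controls (8.999 and 8.96), but only by -0.045. Dlgap1 and Dlgap2 had differences of 0.061 and 0.052. A further row of Dlgap1 differed by 0.034.

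The Shank and Homer genes had differences from -0.059 (Shank2) to 0.062 (Homer3). Homer3 measured 7.89 and 7.65 in the controls and 7.90 and 7.76 in R-SDS mice, with number 2 lower in each group (SE 0.15). Shank1 and Shank3 had differences of -0.042 and -0.058, and Homer2 of 0.053. Shank2 was read on 3 rows that did not go the same way. Its brightest row had a difference of -0.059, the second -0.031, and the dimmest 0.20 (SE 0.13, limma unadjusted p = 0.171), which measured 6.16 and 6.22 on the control arrays, versus 6.43 and 6.36 in R-SDS mice. Averaged over its rows, Shank2 differed by 0.037, so its sign depended on the row. The second Homer2 row, at -0.019, also had the opposite sign to the first.

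The means of all 4 CaMKII subunit genes were higher after stress, also after the arrays were centered on their medians or quantile normalized again, but each changed sign when a single array was left out. Camk2a and Camk2b encode the alpha and beta subunits of forebrain neurons, and Camk2d and Camk2g the more widely expressed delta and gamma subunits. Camk2a measured 12.71 and 12.69 on the control arrays, versus 12.76 and 12.68 in R-SDS mice, a difference of 0.017. Camk2g measured 9.03 and 8.47 in the controls and 9.0 and 8.71 in R-SDS mice. Its difference of 0.10 (SE 0.22, interval -0.44 to 0.64) came from number 2 (0.24), while that within number 1 was -0.032. Camk2b and Camk2d differed by 0.058 and 0.059.

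Neuroligins are postsynaptic partners of neurexins, with Nlgn1 found mainly at excitatory and Nlgn2 at inhibitory synapses. Nlgn2 measured 9.03 and 9.02 on the control arrays, versus 8.95 and 8.996 in R-SDS mice, so that both R-SDS arrays were lower, by -0.053 (SE 0.13). Nlgn1 and Nlgn3 overlapped between the groups, with differences of -0.030 and 0.0048. Of the neurexins, Nrxn3 measured 10.09 and 10.39 on the control arrays, versus 9.96 and 10.20 in R-SDS mice. It was lower in the R-SDS mouse within number 1 (-0.12) and within number 2 (-0.19), although the groups overlapped, and the group difference was -0.15 (SE 0.17, limma adjusted p = 1). It was -0.0023 without Control 2, -0.035 without R-SDS 1 and -0.31 without Control 1. Nrxn2 differed by -0.050.

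The LRRTM genes encode leucine-rich repeat proteins that bind neurexins from the postsynaptic side. Lrrtm2 measured 10.45 and 10.46 in the controls and 10.14 and 10.46 in R-SDS mice. A single array was low, and the difference of -0.15 (SE 0.16) was 0.0055 without R-SDS 1. Lrrtm3 measured 8.67 and 8.59 on the control arrays, versus 8.49 and 8.53 in R-SDS mice. Both R-SDS arrays of Lrrtm3 lay below both controls, by -0.12 on average (SE 0.13, limma adjusted p = 1). Lrrtm1 and Lrrtm4 had group differences of 0.056 and 0.017, far below the distance between the arrays of a group, which is described further on.

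Cerebellins are secreted proteins that bridge presynaptic neurexins and postsynaptic receptors. Cbln2 measured 7.56 in Control 1 and 6.89 in Control 2, while R-SDS 1 read 7.11 and R-SDS 2 read 6.87. Control 1 was the highest array, R-SDS 1 lay between it and the number 2 arrays, and the difference of -0.23 (0.851-fold, SE 0.24) was made within number 1 (-0.45) and not within number 2 (-0.016). Without Control 2 the difference of Cbln2 was -0.57 with an unadjusted limma p of 0.0318, and without Control 1 it was 0.10. Cbln1 measured 6.43 and 5.78 on the control arrays, versus 6.32 and 6.11 in R-SDS mice, with a difference of 0.11 (SE 0.23) and opposite signs within number 1 (-0.11) and number 2 (0.32). Cbln4 differed by 0.077.

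Exchange factors of the postsynaptic density switch on small GTPases that shape the spine and traffic receptors, and signalling adaptors are grouped with them here. Iqsec2, an exchange factor for Arf6, measured 8.64 and 8.69 on the control arrays, versus 8.57 and 8.58 in R-SDS mice. Both R-SDS arrays of Iqsec2 were lower, by -0.087 on average (SE 0.13, limma adjusted p = 1). Its paralog Iqsec1 and the Arf6 exchange factor gene Psd had differences of -0.065 and -0.061. Kalrn, whose product kalirin activates Rac, was higher in both R-SDS arrays, but its 4 values lay between 9.38 and 9.40. The adaptor genes Baiap2 (IRSp53) and Cnksr2 differed by 0.064 and 0.013.

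Synpo encodes synaptopodin, an actin-associated protein of the spine apparatus. It measured 5.69 and 5.24 on the control arrays, versus 5.82 and 5.46 in R-SDS mice. The R-SDS mouse was higher within number 1 (0.13) and within number 2 (0.22), but the groups overlapped (difference 0.17, SE 0.21, 1.13-fold). Synpo had the lowest mean in each group among these scaffold and adhesion genes. Its values lay not far above the lower quartile of the tested rows (4.88 to 5.08 on these arrays). There is no detection call, and whether so dim a row reports the Synpo transcript was not tested. Nrgn encodes neurogranin, which holds calmodulin in spines. Nrgn measured 10.74 and 10.44 on the control arrays, versus 10.81 and 10.53 in R-SDS mice, with a difference of 0.081 (SE 0.17). For both genes the step between numbers was larger than the step between groups. Ppp1r9b, the gene of the phosphatase-targeting protein spinophilin, differed by -0.057.

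**Figure D2:**
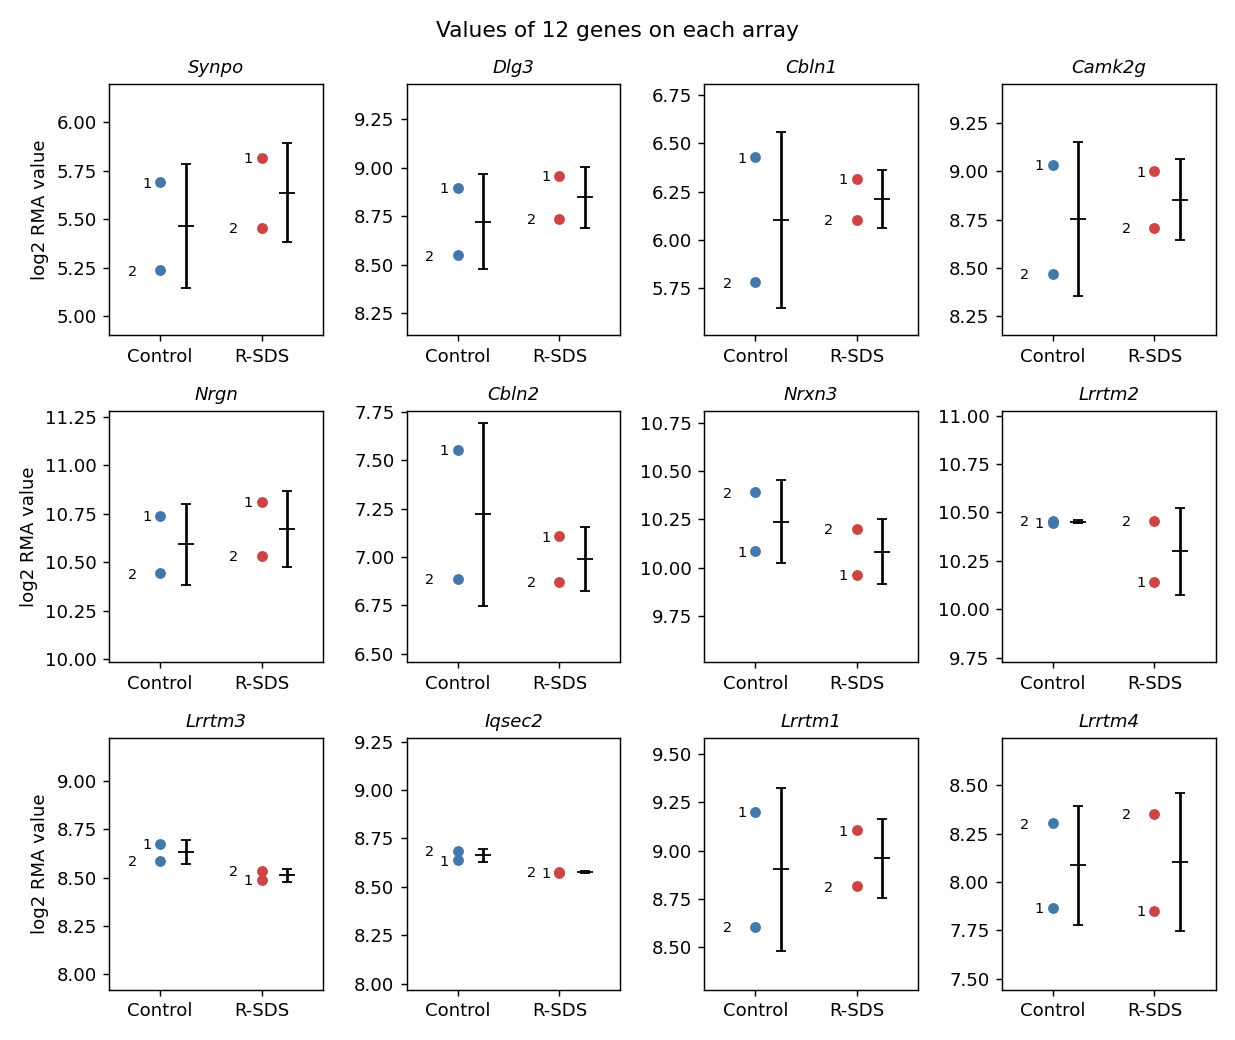
Log2 RMA level (vertical axes of equal length in log2 units) of 12 genes, with a point per array, its replicate number, and group means with SD bars (n = 2) beside the points. Lrrtm3 and Iqsec2 do not overlap between Control and R-SDS, whereas in Lrrtm1 and Lrrtm4 the arrays of a group lie far apart and in opposite orders.

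The groups did not overlap for 5 of the 38 genes (13.2%), beside 18.5% of all tested transcripts. These were Kalrn, which was higher in R-SDS mice (9.41% of all transcripts), and Dlgap4, Nlgn2, Lrrtm3 and Iqsec2, which were lower (4 of 38, or 10.5%, beside 9.06%). After further quantile normalization the split was 0 higher and 7 lower (18.4% lower, beside 12.3% higher and 9.43% lower of all transcripts). With the arrays centered on their medians it was 0 higher and 9 lower (23.7% lower, beside 8.15% higher and 10.6% lower of all transcripts). The sign of Kalrn turned under both. The median difference of the 38 genes was -0.022 and -0.027 under these scalings, and that of all tested transcripts 0.012 and -0.0074.

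The larger part of the variation in these genes followed the replicate number in the sample titles. The labels do not say what a number stands for. The mean of the number 2 arrays minus that of the number 1 arrays was larger in size than the stress difference for 28 of the 38 genes (73.7%), beside 72.4% of all transcripts. The median size of the number difference was 0.13 for the 38 genes, beside 0.16 over all transcripts. That of the stress difference was 0.059, beside 0.074, so both were smaller in these genes. Number 2 was lower for 27 and higher for 11 of them, with a median of -0.061, while the median over all transcripts was -3e-04. The upper quartile of the tested rows was also lower in number 2. It was 8.09 and 7.96 in Control 1 and 2, and 8.08 and 8.004 in R-SDS 1 and 2. The lower quartile was higher in number 2 (4.88 and 5.08, 4.93 and 5.05 in the same order). The median of the 38 genes lay above the upper quartile on each array (9.09 to 9.20). The median over all transcripts is thus not of like brightness, and rows of like brightness were not compared.

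**Figure D3:**
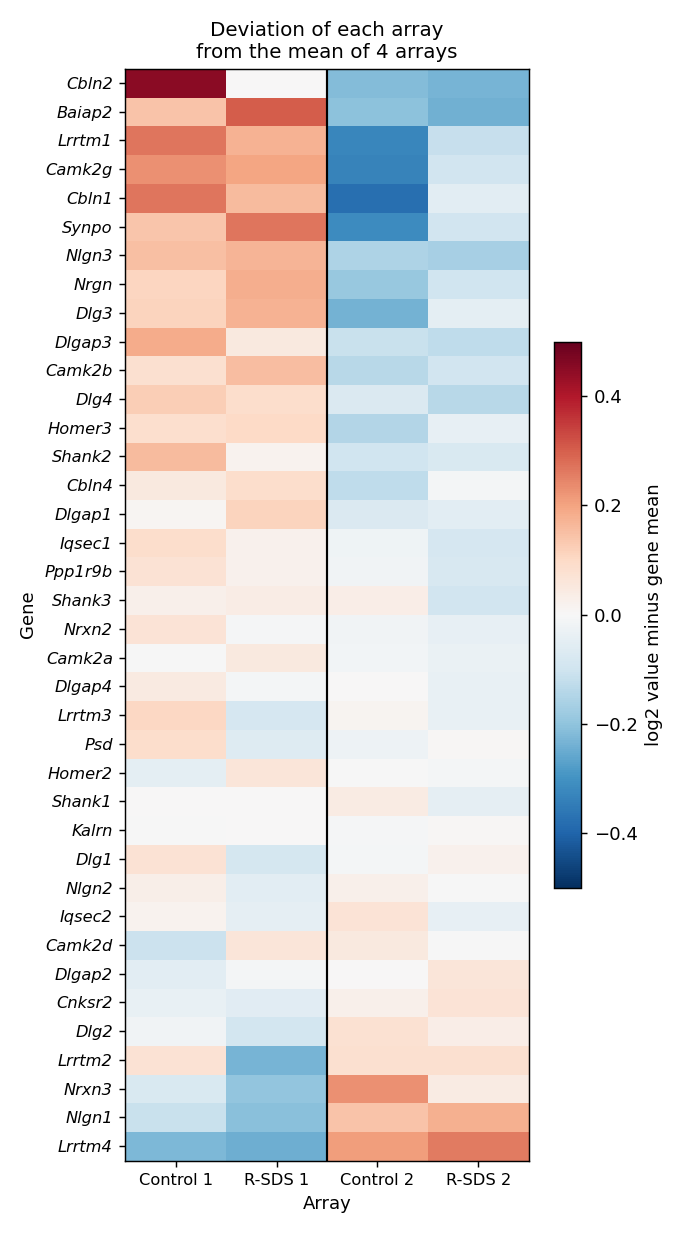
Log2 value of each array minus the mean of the 4 arrays (color) for 38 genes (rows, ordered by the number difference), with the number 1 arrays left of the black line and the number 2 arrays right of it. Genes at the top, such as Cbln2 and Baiap2, are low in both number 2 arrays, and Lrrtm4, Nlgn1 and Nrxn3 at the bottom are high in both.

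In 13 genes the number 2 array differed from the number 1 array by over 0.2 in the same direction in Control and in R-SDS mice (34.2%, beside 22.5% of all transcripts). Lower in number 2 were 10 genes (26.3%, beside 10.6%), namely Dlg3, Camk2b, Camk2g, Nlgn3, Lrrtm1, Cbln1, Cbln2, Baiap2, Synpo and Nrgn. Higher in number 2 were Nlgn1, Lrrtm4 and Nrxn3 (7.89%, beside 11.9%). Most of all transcripts lie below the median value of these genes, so the shares beside them are not of like brightness. These shares are descriptions of 4 arrays and were not tested.

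Related genes parted in this respect. Lrrtm1 measured 9.20 and 9.10 on the number 1 arrays (Control, then R-SDS) and 8.61 and 8.82 on the number 2 arrays. In the same order, Lrrtm4 measured 7.87 and 7.85 on the number 1 arrays and 8.30 and 8.35 on the number 2 arrays. The number 2 arrays were thus lower for Lrrtm1 (-0.44) and higher for Lrrtm4 (0.47). Among the neuroligins, Nlgn3 was lower in number 2 (-0.32) and Nlgn1 higher (0.32). Baiap2 measured 9.89 in Control 1 and 10.05 in R-SDS 1, against 9.54 in Control 2 and 9.51 in R-SDS 2, a number difference of -0.44. By contrast, Camk2a, Shank1 and Kalrn differed by no more than 0.047 between numbers.

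Across the 38 genes, the step from Control 1 to Control 2 ran with the step from R-SDS 1 to R-SDS 2 (Pearson r = 0.80, Spearman rho = 0.84, against 0.52 and 0.55 over all transcripts). Most of all transcripts are dimmer than these genes, so the correlations are not of rows of like brightness. These steps had the same sign for 29 of 38 genes (76.3%, beside 71.5% of all transcripts). The stress difference within number 1 ran little with that within number 2 (r = 0.12, rho = 0.16, against 0.021 and 0.0020 over all transcripts), and 21 of 38 had the same sign (55.3%, beside 10899 of all 21789 transcripts). In each pair of differences no array is used on both sides. The genes share the same 4 arrays and their normalization and are not independent replicates.

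**Figure D4:**
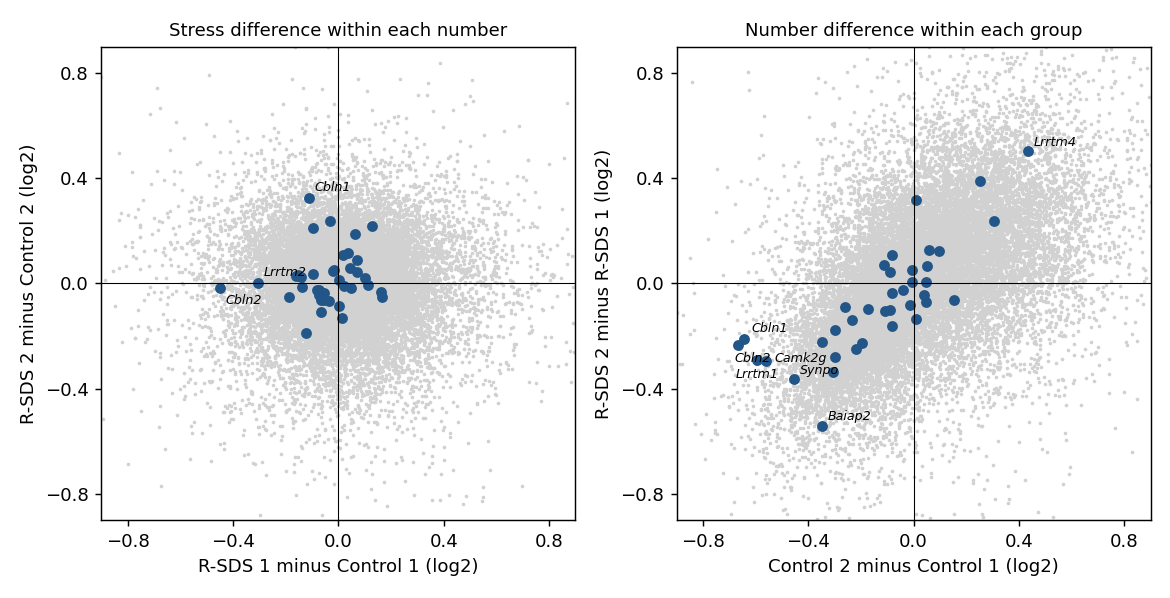
Left, the log2 stress difference within number 1 (horizontal) against that within number 2 (vertical). Right, the step from Control 1 to Control 2 against that from R-SDS 1 to R-SDS 2. Blue points are the 38 genes and grey points all 21789 transcripts, of which those beyond 0.9 are outside the axes. The blue points lie around the origin on the left (r = 0.12) and along a rising line on the right (r = 0.80).

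The genomic span of the genes, taken from RefSeq on GRCm38.p6, differed between those that were high and low in number 2. Of the 7 genes spanning over 500 kb (Dlg2, Dlgap1, Dlgap2, Nlgn1, Lrrtm4, Nrxn3 and Kalrn), 5 were higher in number 2, with a median of 0.11. Of the 9 genes under 20 kb (Homer3, Nlgn2, Lrrtm2, Cbln1, Cbln2, Cbln4, Psd, Ppp1r9b and Nrgn), 2 were higher and the median was -0.14. The remaining 22 genes spanned 20 to 500 kb, and 4 of them were higher, with a median of -0.085. Lower values in number 2 were thus not particular to the short genes. Over the 38 genes the rank correlation of span with the number difference was rho = 0.55. Over all 19919 genes with a span it was -0.16, but among the 212 genes over 500 kb 67.0% were higher in number 2, with a median of 0.085. Among all 10610 genes under 20 kb 53.7% were higher in number 2 (median 0.026), unlike the 9 short genes here. The rank correlation of span with the stress difference was -0.17 for the 38 genes. These are descriptions across genes of 4 shared arrays.

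Promoters are shown for the genes with the largest number difference each way whose sequence was at hand, since these genes moved most between numbers and in opposite directions. Each run is the 150 bases before the most upstream start in the promoter table, read 5′ to 3′ on the strand of the gene from RefSeq (GRCm38.p6), with CpG dinucleotides in capitals. Lrrtm4 lies at chr6:80018727-80018876 (plus strand), Nlgn1 at chr3:26331910-26332059 (minus strand), Lrrtm1 at chr6:77242327-77242476 (plus strand) and Baiap2 at chr11:119942942-119943091 (plus strand). The RefSeq gene spans of Nlgn1, Lrrtm1 and Baiap2 begin farther upstream, so that their stretches lie inside them, and the end of the Lrrtm4 stretch overlaps its gene span.
Lrrtm4: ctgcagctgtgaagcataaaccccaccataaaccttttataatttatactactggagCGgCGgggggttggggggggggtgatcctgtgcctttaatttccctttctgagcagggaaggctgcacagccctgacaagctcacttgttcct
Nlgn1: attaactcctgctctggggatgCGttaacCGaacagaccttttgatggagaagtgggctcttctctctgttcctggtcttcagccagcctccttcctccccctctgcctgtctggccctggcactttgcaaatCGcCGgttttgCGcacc
Lrrtm1: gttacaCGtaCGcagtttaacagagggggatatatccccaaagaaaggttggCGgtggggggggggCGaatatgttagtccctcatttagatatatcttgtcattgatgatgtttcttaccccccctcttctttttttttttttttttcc
Baiap2: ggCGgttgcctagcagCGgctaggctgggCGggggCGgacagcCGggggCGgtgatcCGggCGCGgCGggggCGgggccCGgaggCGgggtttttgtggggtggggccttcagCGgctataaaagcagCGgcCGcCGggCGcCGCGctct

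The stretch of Baiap2 holds 20 CpG dinucleotides at a GC content of 77.3%, that of Lrrtm1 holds 4 at 42.7%, that of Lrrtm4 holds 2 at 52.0% and that of Nlgn1 holds 5 at 56.0%. The 2 genes that were lower in number 2 are thus the richest and the poorest in GC. In the 250 bases before the listed starts, 27 of the 38 genes had a sequence, with a median GC content of 60.8% (42.0% to 82.4%), beside 56.6% over 15614 measured genes. The GC box GGGCGG was found on either strand in 16 of the 27 genes (59.3%, beside 49.3% of those 15614), the TATA box letters TATAAA in 5 (18.5%, beside 12.5%), and the cyclic AMP response element TGACGTCA in 0 (beside 2.33%). These motifs do not overlap in their letters, a match is a description of letters and not a binding site, and a gene with several starts was counted once.

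Other genes of the postsynapse and of synaptic adhesion, taken from lists written for this comparison, were set beside the 38 genes. Of 30 further postsynaptic density genes, 27 were measured, with 14 higher and 13 lower in R-SDS mice and a median difference of 0.0048. In this list the groups did not overlap for Abi1 (0.051; 3.7% of the list higher, beside 9.41% of all transcripts) and for Anks1b (-0.098) and Sipa1l1 (-0.059), which were lower (7.41%, beside 9.06%). Of 20 regulators of spine actin, 19 were measured (9 higher, 10 lower, median -0.019), with non-overlapping lower values for 4 (21.1%, beside 9.06% of all transcripts) and higher values for 0, led by Ppp1r9a (neurabin, -0.18) and Actn2 (alpha-actinin, -0.079). By limma, 0 genes of either list had an adjusted or an unadjusted p under 0.05.

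Of 59 further synaptic adhesion genes, 55 were measured, with 17 higher and 38 lower and a median difference of -0.041. The groups did not overlap for 3 higher genes (5.45%, beside 9.41% of all transcripts) and for 10 lower genes (18.2%, beside 9.06%). C1ql2, a secreted C1q-like protein of dentate granule cell axons, measured 8.02 and 7.76 on the control arrays, versus 8.47 and 8.09 in R-SDS mice (difference 0.39, SE 0.18). Cbln3, a cerebellin that pairs with Cbln1, measured 5.08 and 5.17 against 5.36 and 5.44 (difference 0.27, SE 0.13). The receptor tyrosine kinase gene Ephb1 (-0.16) and the ephrin gene Efnb3 (-0.15) were the farthest from 0 of the 10 non-overlapping lower genes, whereas Mdga2 (-0.23) and Ptprd (-0.17) were lower in mean with overlapping groups. By limma, 0 of the 55 genes had an adjusted or an unadjusted p under 0.05. Their median difference was -0.077 between the number 1 arrays and -0.018 between the number 2 arrays.

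Markers of cell types were read beside these results. The 5 general neuron markers had a median difference of -0.019, and the log2 of their summed signal was 14.31 and 14.27 on the control arrays, versus 14.28 and 14.30 in R-SDS mice. The dentate granule cell markers were higher in 6 of 6 genes (median 0.35), with a log2 sum of 10.42 and 10.35 against 10.58 and 10.53, and C1ql2 belongs to that list too. Of these, Prox1 (0.033) and Dock10 (0.020) differed little. The R-SDS array was higher for 4 of the 6 within number 1 and for 6 of the 6 within number 2. The 10 choroid plexus markers were highest together in R-SDS 1 (10 of 10 with a higher R-SDS mean, median 1.38), with a log2 sum of 11.68 and 9.20 on the control arrays, versus 13.74 in R-SDS 1 and 9.74 in R-SDS 2. Within number 1 the R-SDS array was higher for 10 of the 10 (median 2.38). Within number 2 it was higher for only 4 of the 10 (median -0.087), among them Ttr (1.36), the brightest of the list. Endothelial markers were higher in 5 of 6 genes (median 0.16), astrocyte markers in 6 of 6 (0.15) and CA1 pyramidal cell markers in 4 of 4 (0.10). The remaining lists were mixed or mostly lower. GABAergic interneuron markers were higher in 1 of 6 (-0.029), cortex markers in 2 of 6 (-0.042) and oligodendrocyte markers in 2 of 5 (-0.066). Striatum markers were higher in 2 of 4 (-0.044) and CA3 pyramidal cell markers in 3 of 6 (0.010). For microglia it was 3 of 5 (0.0001), and for thalamus and habenula 4 of 8 (0.0005). Between numbers, markers of many cell types were lower in number 2, among them choroid plexus (10 of 10, median -1.51), CA1 pyramidal cells (4 of 4, -0.29), endothelium (5 of 6, -0.27), oligodendrocytes (5 of 5, -0.22), astrocytes (5 of 6, -0.22) and the cortex (6 of 6, -0.22). The shift was not uniform, since striatum markers were higher in number 2 for 3 of 4 genes (0.25). The general neuron markers had a median number difference of only -0.029. The part of these markers in the values of the 38 genes was not tested. The lowest value among the neuron markers was 10.03, but some markers of other lists were dim. The lowest value was 4.16 for choroid plexus, 4.31 for thalamus and habenula, and 4.74 for dentate granule cells (Tdo2). The lower quartile of the tested rows was 4.88 to 5.08 on the 4 arrays.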

How the data were processed

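Expression was measured on 4 whole-transcript mouse arrays of Affymetrix (Gene 1.0 ST), 2 for Control and 2 for R-SDS, with groups and numbers from the sample titles. The authors' deposited values are log2 RMA signals. The submitters' processing notes name Affymetrix Expression Console as the software. RMA corrects background, normalizes the arrays and summarizes probes. Which arrays were normalized together, and the genome build, are not given in the sources used here. The labels and the methods name different labeling kits. There is no detection call and no depth, and the number of arrays limits precision. Quartiles differ between numbers: the interquartile range over the tested rows was 3.21 and 3.15 in number 1, and 2.88 and 2.95 in number 2 (Control and R-SDS).

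Of 35556 rows, 21789 carried 1 symbol in the platform annotation, 1621 several and 12146 were not listed. Symbols were updated by Entrez identifier against RefSeq (99.6% matched, 0 changed). The comparison used limma 3.58.1 in R 4.3.3 (lmFit, eBayes, no covariate, two-sided, Benjamini-Hochberg over 21789 rows, 2 residual and 4.07 prior degrees of freedom), tested on simulated data. Within-number differences, number differences, correlations and motif counts have no test. Figures were drawn with matplotlib 3.10.9. The members and gene lists were chosen with earlier results of these data known. Values on every array are given for the 5 highest and 5 lowest differences, the largest of each role, and some genes named after their values were seen (Camk2a, Lrrtm1, Lrrtm4, Baiap2, the dimmest Shank2 row, Mdga2 and Ptprd). Of other lists, up to 2 genes per direction with non-overlapping groups are named. Alternatives were the replicate number as a block, leaving out each array, a further quantile normalization, centering, a filter on dim rows (mean under 4.99), the methods' t-test, and the mean of a gene's rows.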

Additional observations from a re-analysis of the deposited data

How the results depend on the processing

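The count of the 38 genes past the adjusted p was 0 under all 10 alternatives. The numbers 1 and 2 are shared between the groups, but the labels do not say that they pair the mice. Deviations from the group means correlated at 0.517 between same-numbered arrays over all transcripts, which is the correlation of the steps given above in another form. A limma fit with a replicate block (1 residual degree of freedom) gave 0 transcripts past the adjusted p, 1047 at an unadjusted p under 0.05 (221 without the block) and 0 of the 38 genes at either. At an unadjusted p under 0.05, leaving out an array gave 0 to 1 of the 38 genes, and 0 to 49 transcripts passed the adjusted p (49 without R-SDS 2, 2 without R-SDS 1). Leaving out an array also gave 19 to 26 genes with non-overlapping groups, beside 52.4% to 64.5% of all transcripts, since fewer arrays overlap less (19 beside 64.5% without Control 1, 20 beside 55.4% without Control 2, 21 beside 52.4% without R-SDS 1, 26 beside 64.1% without R-SDS 2). Centering gave 9 (23.7%, beside 18.8%), against 5. Of the 38 genes, 13 kept the sign of their difference under every alternative. Under a further quantile normalization the sign of Kalrn turned (-0.0053). With centered arrays it turned for Kalrn (-0.0056), Nlgn3 (-0.0098) and Cnksr2 (-0.0019), and with the mean of all rows for Shank2 (0.037). The cause was not tested. Leaving out single arrays turned the sign of 24 genes, whose log2 differences then ranged over these limits: Dlg2 -0.12 to 0.0053, Dlg3 -0.048 to 0.30, Dlg4 -0.16 to 0.062, Dlgap1 -0.021 to 0.14, Dlgap3 -0.23 to 0.075, Shank2 -0.19 to 0.071, Shank3 -0.13 to 0.0098, Homer3 -0.054 to 0.18, Camk2a -0.024 to 0.057, Camk2b -0.066 to 0.18, Camk2d -0.018 to 0.14, Camk2g -0.18 to 0.38, Nlgn1 -0.22 to 0.17, Nlgn3 -0.16 to 0.17, Lrrtm1 -0.24 to 0.35, Lrrtm2 -0.31 to 0.0055, Lrrtm4 -0.23 to 0.27, Cbln1 -0.22 to 0.43, Cbln2 -0.57 to 0.10, Cbln4 -0.010 to 0.16, Baiap2 -0.21 to 0.33, Cnksr2 -0.051 to 0.076, Synpo -0.053 to 0.40 and Nrgn -0.069 to 0.23. With an array left out, the lone array of its group is assumed to vary like the other group.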

Other observations

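Genes of the inhibitory postsynapse, which is built on the scaffold gephyrin instead of PSD-95, had a median log2 difference of -0.039 between R-SDS and Control mice, with 3 higher and 7 lower of 10 measured (of 11 named). The groups did not overlap for 3 lower genes (30.0%, beside 9.06% of all transcripts) and 0 higher ones. The inhibitory synapse organizer Insyn2a measured 7.82 and 7.71 on the control arrays, versus 7.70 and 7.55 in R-SDS mice (-0.14, SE 0.14), and the adhesion gene Igsf9b 7.69 and 7.69 against 7.60 and 7.56 (-0.11, SE 0.13). The third is Nlgn2, which is described above. Slitrk3, Mdga1 and Igsf9b are also in the list of further adhesion genes, so Igsf9b is counted among the lower genes of both lists. By limma, 0 of the 10 genes had an adjusted or an unadjusted p under 0.05.

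Among calmodulin genes and further calmodulin targets (14 measured of 16), 5 were higher and 9 lower with a median of -0.014. The kinase gene Camk4 measured 8.35 and 8.27 on the control arrays, versus 8.11 and 8.21 in R-SDS mice (-0.15, SE 0.13). The groups did not overlap for 2 lower genes (14.3%, beside 9.06% of all transcripts), Camk4 and Ppp3r1. The calcineurin subunit gene Ppp3r1 was also lower in both R-SDS arrays, but by only -0.013. By limma, 0 of the 14 genes had an adjusted or an unadjusted p under 0.05.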
